A study of Homo sapiens with 38 samples.

Results

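AXIN2, NKD1 and NKD2 encode inhibitors of WNT signalling that work inside the cell, and they were followed through 3 ways of switching the pathway on in human embryonic stem cells. The 3 genes were taken by symbol from a table of 43412 genes, and each was found there as 1 row. All 3 were among the 24304 genes that passed the filter on low counts and were tested.

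The cells were H9, an established human embryonic stem cell line. In the CHIR arm the cells received 10 µM CHIR99021, an inhibitor of the kinase GSK3, and were collected at 0, 8, 16, 24, 48 and 72 h. In the Wnt3a arm they received 240 ng/ml recombinant Wnt3a, a secreted WNT ligand, and were collected at 0, 8, 24, 48, 72, 96 and 120 h. In the bcat arm 1 µg/ml doxycycline induced a constitutively active beta-catenin from a construct integrated in H9, with collection at 0, 8, 16, 24, 48 and 72 h. The uninduced bcat cultures carried the same construct, so they differ from plain H9, and the labels do not say whether the line is 1 clone. In every arm the cells had been plated fully confluent on Matrigel, and the agent was given together with a change from mTeSR1 to RPMI1640 with B27 lacking vitamin A, renewed every 24 h. A culture that received the new medium without an agent is not analysed here, so the change of medium and the agent cannot be told apart within an arm.

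In the absence of WNT, beta-catenin is held in a complex of the scaffold Axin, the tumour suppressor APC and the kinases CK1 and GSK3, is phosphorylated there and is destroyed. When a WNT ligand binds its receptors, the protein Dishevelled is engaged, the complex stops working, and beta-catenin enters the nucleus and switches on genes together with TCF and LEF factors. AXIN2, a relative of the scaffold Axin, is a direct target of that pathway in many tissues and rebuilds the complex. NKD1 and NKD2 are the vertebrate relatives of naked cuticle of the fruit fly, bind Dishevelled, and oppose the signal, while NKD2 has also been described as carrying the growth factor TGFA to the cell surface. CHIR99021 acts at GSK3 and the stabilised beta-catenin acts below the complex, whereas Wnt3a acts at the receptors.

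Total RNA of 38 libraries in 19 groups of 2 was sequenced, and 37 libraries were compared, because both Wnt3a 72 h columns were identical in every gene and were counted as 1 library (n = 1). Depth ran from 2.45 to 65.7 M estimated counts (median 19.0 M). The counts behind a single value ran from 57 to 21197 for AXIN2, from 16 to 37470 for NKD1 and from 6 to 1044 for NKD2. Of the libraries 4 stood apart. Wnt3a 0 h replicate 1 was the shallowest of the 37. Ribosomal RNA made up 34.0% of bcat 0 h replicate 1, 60.3% of bcat 24 h replicate 1 and 60.2% of bcat 48 h replicate 2, against a median of 5.13%. The whole bcat arm was high, at 14.3% or more in every library but 0 h replicate 2 (5.77%). Wnt3a libraries held at most 4.94%, and CHIR libraries at most 9.10% but for 0 h replicate 1 (18.8%). Leaving out the 4 libraries does not remove this difference, which cannot be told apart from the bcat arm itself. All 7 markers of undifferentiated cells (POU5F1, NANOG, SOX2, LIN28A, DNMT3B, L1TD1 and ZFP42) were present in the 0 h libraries. The 6 markers of primitive streak and mesoderm (T, EOMES, MIXL1, MESP1, TBX6 and MSGN1) summed there to at most 2.43 CPM. The libraries come from whole cultures, so a change in the share of cells that use a gene and a change in RNA per cell cannot be told apart. The labels call the replicates biological without saying more, and the p-values measure the spread between these libraries.

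Levels are given in CPM (a gene's counts per 1000000 counts of the library), scaled for composition by the TMM method, for replicates 1 and 2 in that order. A change is a fitted log2 ratio to the arm's own 0 h group with its standard error (SE). It was called when the p-value of edgeR's quasi-likelihood test, adjusted by Benjamini-Hochberg over all 24304 genes of the comparison, lay below 0.05. Reads that a gene shares with an overlapping or antisense transcript cannot be told apart here, since neither the annotation nor the strand setting of the counting is given in the sources used here.

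With CHIR99021, AXIN2 was high from the first time sampled and its mean was highest at 72 h. NKD1 climbed further and its mean was highest at 48 h, and NKD2 rose late and least. At 72 h the fitted change was 20.7-fold for AXIN2, 140-fold for NKD1 and 7.18-fold for NKD2. AXIN2 stood at 19.9 and 20.3 CPM at 0 h, 209.6 and 186 CPM at 8 h, 209.7 and 257 CPM at 16 h, 239 and 279.8 CPM at 24 h, 316 and 382 CPM at 48 h, and 409 and 422 CPM at 72 h. Every treated library lay far above both 0 h libraries. The log2 changes were 3.30 ± 0.20 at 8 h, 3.54 ± 0.20 at 16 h, 3.69 ± 0.20 at 24 h, 4.12 ± 0.20 at 48 h and 4.37 ± 0.20 at 72 h (SE, n = 2 per group). The adjusted p ran from 1.53e-12 at 8 h to 1.61e-15 at 72 h. No step of AXIN2 from one CHIR time to the next was called. The step from 24 to 48 h came nearest, at 0.43 ± 0.18 with a 95% interval from 0.07 to 0.79 and an adjusted p of 0.0771, and it was called when only the arms compared were fitted (0.40, adjusted p = 0.0102). The libraries of 24, 48 and 72 h did not overlap each other, while those of 16 and 24 h did.

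NKD1 stood at 2.92 and 6.90 CPM at 0 h, 82.4 and 90.0 CPM at 8 h, 244 and 279 CPM at 16 h, 313 and 333 CPM at 24 h, 742 and 1043 CPM at 48 h, and 723 and 717 CPM at 72 h. Here too the treated libraries lay above both 0 h libraries at every time, and the 0 h libraries differed from each other. The log2 changes were 4.06 ± 0.30, 5.67 ± 0.32, 5.97 ± 0.32, 7.44 ± 0.34 and 7.13 ± 0.34 from 8 to 72 h, and all were called, with adjusted p of at most 3.33e-09. Without CHIR 0 h replicate 2, the higher of the 0 h libraries, they were 4.88 at 8 h and 8.26 at 48 h, and without replicate 1 they were 3.64 and 7.01. Steps of NKD1 were called from 8 to 16 h (1.60 ± 0.26, adjusted p = 2.72e-04) and from 24 to 48 h (1.47 ± 0.25, adjusted p = 1.19e-04). At 8 h the mean level of AXIN2 was already 47.6% of its highest group mean in the arm, while that of NKD1 was 9.65% of its own highest, reached at 48 h.

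NKD2 stood at 2.82 and 2.72 CPM at 0 h, 3.41 and 5.07 CPM at 8 h, 5.11 and 5.74 CPM at 16 h, 7.27 and 6.63 CPM at 24 h, 7.15 and 6.96 CPM at 48 h, and 20.1 and 19.6 CPM at 72 h. The values form a low plateau from 24 to 48 h and a clear jump at 72 h, and no treated library reached down to the 0 h libraries. The log2 change of 0.60 ± 0.31 at 8 h was not called (adjusted p = 0.184). Those of 0.98 ± 0.31 at 16 h, 1.32 ± 0.31 at 24 h, 1.35 ± 0.31 at 48 h and 2.84 ± 0.31 at 72 h were called. The adjusted p was 0.0289 for 16 h, 0.00305 for 24 h, 7.52e-04 for 48 h and 1.32e-08 for 72 h. The call at 16 h was lost whenever any of the 4 libraries behind it was left out (adjusted p from 0.0547 to 0.166, log2 change from 0.91 to 1.06). Among the steps of NKD2 the one from 48 to 72 h was called, at 1.49 ± 0.29 with an adjusted p of 4.04e-04.

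Calls were frequent in this arm: of all genes tested 20.9% were called at 8 h, 15.9% at 16 h, 14.5% at 24 h, 33.9% at 48 h and 24.9% at 72 h. The steps between neighbouring times called 11.4%, 8.09%, 25.6% and 13% in time order. From 16 h on, 3 of the 3 members were called, all upward. For AXIN2 and NKD1 the size of the change stood apart more than the call did. At 8 h 328 of the 24304 genes had a larger log2 change than AXIN2 and 192 a larger one than NKD1. For NKD2 it was 4643 genes at 8 h and 746 at 72 h. Over the same hours the 6 streak and mesoderm markers summed to 68.1 to 89.6 CPM at 8 h and to 609 to 670 CPM at 72 h (1 marker was at 0 up to 16 h and none from 24 h). The 7 markers of undifferentiated cells summed to 2171 to 2221 CPM at 72 h, against 4697 to 4800 CPM at 0 h. The 4 endoderm markers (SOX17, FOXA2, CXCR4 and HHEX) summed to 237 to 270.4 CPM at 48 h, when NKD1 was at its highest, and to 44.6 to 67.9 CPM at 72 h, against 3.26 to 3.67 CPM at 0 h. CXCR4 alone averaged 254 CPM at 48 h and 55.3 CPM at 72 h, so the sums at these times rest almost wholly on 1 gene. The 3 endothelial markers (PECAM1, CDH5 and KDR) summed to 24.7 to 29.1 CPM at 72 h, against 159.7 to 160.2 CPM at 0 h. In the 0 h libraries of all arms KDR stood at 119 to 258 CPM, CDH5 at most at 0.970 CPM and PECAM1 at most at 0.675 CPM. The endothelial sum at 0 h is therefore almost wholly KDR. The part of these shifts in the levels of the 3 genes was not tested.

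**Figure D1:**
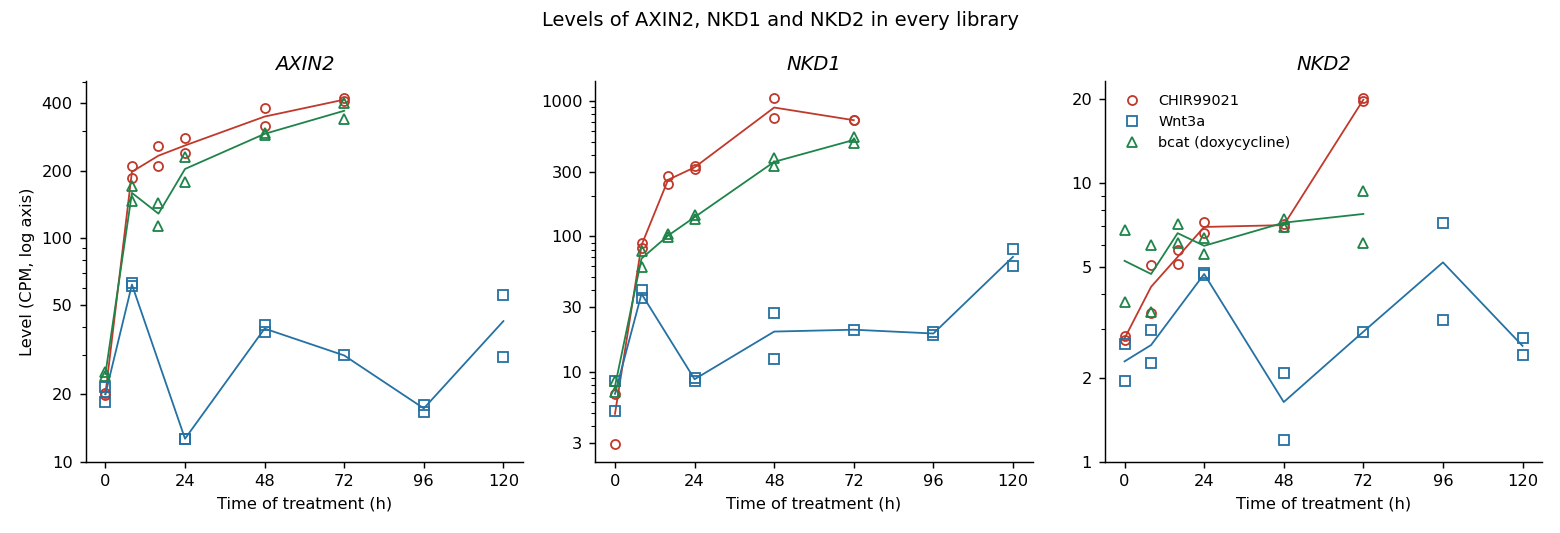
Level of AXIN2, NKD1 and NKD2 in CPM (log axis) against time of treatment in hours, with 1 point per library, lines through group means, and circles for CHIR99021, squares for Wnt3a and triangles for bcat. AXIN2 and NKD1 climb in the CHIR99021 and bcat arms, while in the Wnt3a arm both rise at 8 h and dip at 24 h. NKD2 leaves its low range at CHIR99021 72 h, with 20.1 and 19.6 CPM.

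With Wnt3a, AXIN2 and NKD1 rose at 8 h, had lost that rise by 24 h, and were above 0 h again at 48 h, so that their course had a dip at 24 h. At that hour both genes stood far above 0 h in the CHIR arm. AXIN2 stood at 18.4 and 21.6 CPM at 0 h, 60.9 and 63.0 CPM at 8 h, 12.7 and 12.7 CPM at 24 h, 40.9 and 37.9 CPM at 48 h, 29.9 CPM in the 1 library at 72 h, 18.0 and 16.7 CPM at 96 h, and 55.6 and 29.5 CPM at 120 h. The libraries at 24 and 96 h lay below both 0 h libraries, and those at all other times above them. AXIN2 rose at 8 h (log2 change 1.58 ± 0.20, adjusted p = 5.84e-06), at 48 h (0.92 ± 0.20, adjusted p = 0.00159) and at 120 h (1.04 ± 0.20, adjusted p = 2.58e-04). It fell at 24 h (-0.71 ± 0.21, adjusted p = 0.0170). Leaving out 0 h replicate 2 ended this call (-0.54, adjusted p = 0.371), and so did leaving out 24 h replicate 1 (-0.70, adjusted p = 0.0759) or 24 h replicate 2 (-0.71, adjusted p = 0.0906). The changes at 72 h (0.53 ± 0.23, adjusted p = 0.135) and 96 h (-0.26 ± 0.20, adjusted p = 0.338) were not called. At 120 h the replicates differed, and without 120 h replicate 1 the change was 0.52 with an adjusted p of 0.0359.

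NKD1 stood at 5.17 and 8.62 CPM at 0 h, 34.9 and 40.5 CPM at 8 h, 8.63 and 9.04 CPM at 24 h, 12.5 and 27.2 CPM at 48 h, 20.5 CPM in the 1 library at 72 h, 19.6 and 18.8 CPM at 96 h, and 81.0 and 60.4 CPM at 120 h. The highest group was thus the last one, whereas the highest group of AXIN2 in this arm was that at 8 h. NKD1 rose by a log2 change of 2.24 ± 0.31 at 8 h (adjusted p = 6.89e-05) and of 3.15 ± 0.32 at 120 h (adjusted p = 9.79e-08). It also rose by 1.39 ± 0.31 at 48 h, 1.36 ± 0.35 at 72 h and 1.27 ± 0.31 at 96 h, with adjusted p of at most 0.00950. At 24 h its change was 0.15 ± 0.33 (adjusted p = 0.816), with a 95% interval from -0.53 to 0.83. The call at 48 h rested on replicate 2 of that time, without which the change was 0.65 (adjusted p = 0.235). The call at 72 h was lost without 0 h replicate 2, the higher 0 h library, although the change was then 1.98 (adjusted p = 0.0597).

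NKD2 stood at 1.94 and 2.64 CPM at 0 h, 2.27 and 2.98 CPM at 8 h, 4.74 and 4.69 CPM at 24 h, 1.20 and 2.08 CPM at 48 h, 2.93 CPM in the 1 library at 72 h, 7.16 and 3.21 CPM at 96 h, and 2.42 and 2.78 CPM at 120 h. The 0 h values rested on 6 and 180 counts and those at 48 h on 11 and 59 counts. The libraries overlapped those at 0 h at 8, 48 and 120 h, and at 24 h NKD2 lay above 0 h while AXIN2 was at its lowest. The change was called at 96 h (1.05 ± 0.34, adjusted p = 0.0130), where it was lost without 96 h replicate 1 (0.36, adjusted p = 0.479) and without 0 h replicate 2 (1.41, adjusted p = 0.114). At 24 h it was 0.91 ± 0.34 (adjusted p = 0.0551), and with DESeq2's size factors it was 0.98 and called (adjusted p = 0.0398). The changes at the other times lay between -0.51 and 0.22 and were not called.

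The steps in the Wnt3a arm ran in opposite directions for NKD2 and for the other two. From 8 to 24 h AXIN2 fell by 2.29 ± 0.20 and NKD1 fell by 2.09 ± 0.29 on the log2 scale (adjusted p = 3.61e-09 and 1.59e-05), while NKD2 rose by 0.82 ± 0.31 (adjusted p = 0.0478). From 24 to 48 h AXIN2 rose by 1.63 ± 0.20 and NKD1 by 1.24 ± 0.30 (adjusted p = 1.48e-06 and 0.00522), while NKD2 fell by 1.42 ± 0.34 (adjusted p = 0.00335). From 96 to 120 h AXIN2 rose by 1.30 ± 0.19 and NKD1 by 1.88 ± 0.27 (adjusted p = 1.92e-05 and 3.49e-05), while NKD2 fell by 0.99 ± 0.33 (adjusted p = 0.0268). The step of AXIN2 from 72 to 96 h was also called, at -0.79 ± 0.23 with an adjusted p of 0.0193, and no member's step from 48 to 72 h was.

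Some of these steps shrank or lost their call when a single library was left out. The rise of NKD2 from 8 to 24 h lost its call whichever of the 4 libraries behind it was left out, with steps from 0.66 to 1.05. Its fall from 96 to 120 h was -0.31 without 96 h replicate 1 (adjusted p = 0.660), and it lost its call without either 120 h library (adjusted p = 0.157 without replicate 1 and 0.0818 without replicate 2). The rise of NKD1 from 24 to 48 h was 0.50 without 48 h replicate 2 (adjusted p = 0.348), and that of AXIN2 from 96 to 120 h was 0.79 without 120 h replicate 1 (adjusted p = 0.00171). The AXIN2 step from 72 to 96 h lost its call without either 96 h library, while its size hardly moved (-0.84 without replicate 1 and -0.75 without replicate 2).

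Over all genes the Wnt3a arm called 3.45% at 8 h, 20.2% at 24 h, 16.1% at 48 h, 16.4% at 72 h, 39.9% at 96 h and 27.9% at 120 h. AXIN2 and NKD1 were both called at 8 h, the time with the fewest calls over all genes. The steps called 26.1% of the genes from 8 to 24 h, 19% from 24 to 48 h, 2.45% from 48 to 72 h, 13.2% from 72 to 96 h and 22.8% from 96 to 120 h. Without the 4 libraries that stood apart, the shallow 0 h library among them, AXIN2 changed by 1.53 at 8 h, -0.76 at 24 h, 0.88 at 48 h and 1.00 at 120 h. NKD1 then changed by 2.14 at 8 h, 1.30 at 48 h, 1.28 at 72 h, 1.19 at 96 h and 3.06 at 120 h. All of these were called (adjusted p of at most 0.0428). NKD2 at 96 h was 1.01 without them (adjusted p = 0.0337).

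Marker lists of other cell types also moved in this arm. The 6 streak and mesoderm markers summed to 1.94 to 2.05 CPM at 0 h, 89.2 to 96.7 CPM at 8 h, 18.8 to 21.4 CPM at 24 h and 634 to 686 CPM at 48 h. After that they came to 320.2 CPM at 72 h, 134 to 154 CPM at 96 h and 67.6 to 89.3 CPM at 120 h. The 4 endoderm markers had no dip at 24 h, with sums of 0.660 to 0.970 CPM at 0 h, 1.54 to 1.94 CPM at 8 h, 2.56 to 3.44 CPM at 24 h, 38.7 to 50.6 CPM at 48 h, 159 to 241 CPM at 96 h and 134 to 225 CPM at 120 h. The 7 markers of undifferentiated cells summed to 4940 to 5949 CPM at 0 h, 2121 to 2256 CPM at 96 h and 2711 to 2834 CPM at 120 h. At 120 h the 3 trophoblast and amnion markers (CGA, KRT7 and ISL1) summed to 15.9 to 17.1 CPM, against 2.91 to 3.02 CPM at 0 h. The endothelial markers then summed to 46.6 to 63.8 CPM, against 120.3 to 139.7 CPM. Neural markers summed to at most 0.323 CPM at any time. The part of these markers in the levels of AXIN2, NKD1 and NKD2 was not tested.

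**Figure D2:**
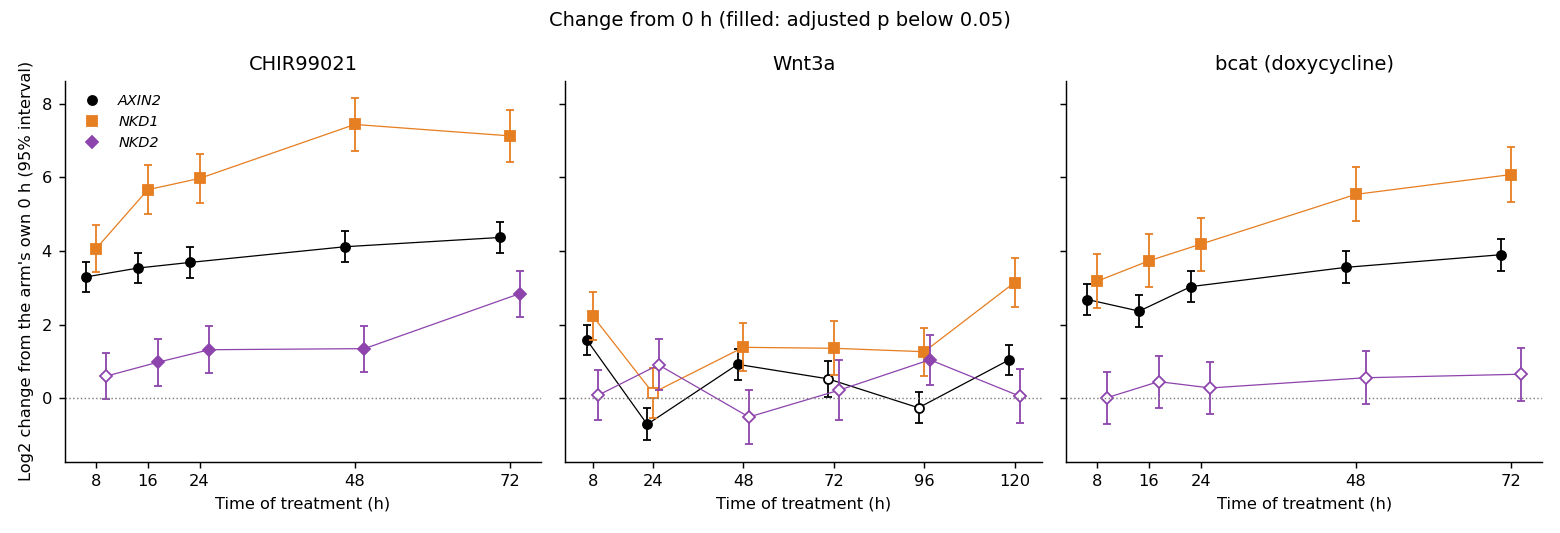
Log2 change of each gene from the arm's own 0 h group against time of treatment in hours, with 95% intervals; filled symbols mark an adjusted p below 0.05 and open symbols the rest. NKD1 lies above AXIN2 at every time of every arm, and NKD2 is lowest in the CHIR99021 and bcat arms. In the Wnt3a arm NKD2 lies above AXIN2 at 24 h (0.91 against -0.71) and at 96 h (1.05 against -0.26).

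With the induced beta-catenin, AXIN2 and NKD1 rose at all 5 times and NKD2 was called at none. AXIN2 stood at 24.1 and 25.2 CPM at 0 h, 171 and 147 CPM at 8 h, 114 and 143 CPM at 16 h, 229.6 and 177 CPM at 24 h, 295 and 289.7 CPM at 48 h, and 402 and 339 CPM at 72 h. The 16 h libraries lay below the 8 h libraries, and this step was not called (-0.31 ± 0.18, adjusted p = 0.339). The log2 changes were 2.68 ± 0.21, 2.37 ± 0.21, 3.03 ± 0.21, 3.56 ± 0.21 and 3.90 ± 0.21 from 8 to 72 h, with adjusted p of at most 4.97e-09. All stayed called when the 4 libraries that stood apart were left out, at 2.67, 2.34, 2.81, 3.56 and 3.89.

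NKD1 stood at 8.53 and 7.17 CPM at 0 h, 77.5 and 59.7 CPM at 8 h, 104 and 98.4 CPM at 16 h, 133 and 144 CPM at 24 h, 329 and 380.3 CPM at 48 h, and 539 and 491 CPM at 72 h. Each group lay wholly above the one before it. The log2 changes were 3.18 ± 0.35, 3.73 ± 0.35, 4.19 ± 0.35, 5.54 ± 0.35 and 6.08 ± 0.35 from 8 to 72 h (adjusted p of at most 9.79e-07). They were 3.29, 3.82, 4.32, 5.54 and 6.18 without the 4 libraries, all called. Of the steps only that of NKD1 from 24 to 48 h was called among the 3 members, at 1.35 ± 0.25 with an adjusted p of 9.56e-04. It was 1.21 and not called (adjusted p = 0.0862) without the 4 libraries, among them 1 each at 24 and 48 h. At 8 h AXIN2 was at 42.9% of its mean at 72 h and NKD1 at 13.3%.

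NKD2 stood at 6.76 and 3.74 CPM at 0 h, 5.99 and 3.44 CPM at 8 h, 7.11 and 6.09 CPM at 16 h, 6.33 and 5.57 CPM at 24 h, 6.95 and 7.45 CPM at 48 h, and 6.09 and 9.39 CPM at 72 h. The 0 h libraries, which rested on 23 and 35 counts, held 5 of the 10 treated libraries within their range, and the groups overlapped at 8, 16, 24 and 72 h. The log2 change was 0.02 at 8 h, 0.45 at 16 h, 0.28 at 24 h, 0.56 at 48 h and 0.66 ± 0.35 at 72 h, where the 95% interval ran from -0.06 to 1.37 (adjusted p = 0.177). Without the 4 libraries, which takes out the higher 0 h library, it was 0.41, 0.83, 0.57, 0.91 and 1.04, again with no call (adjusted p of 0.0859 at 72 h). A rise of the size seen at CHIR 72 h lay outside the interval, and a rise of 2-fold lay inside it.

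Of all genes 18.7% were called at bcat 8 h, 10.9% at 16 h, 12.8% at 24 h, 21.3% at 48 h and 27.3% at 72 h. The steps called 7.87%, 1.37%, 9% and 6.18% in time order. The streak and mesoderm markers summed to 22.8 to 33.2 CPM at 8 h and to 214 to 253 CPM at 72 h, against 1.47 to 2.35 CPM at 0 h. At 72 h the endoderm markers summed to 72.8 to 76.6 CPM, against 5.29 to 6.74 CPM at 0 h. CXCR4 alone averaged 74.4 CPM at 72 h, so that sum rests almost wholly on this gene. The 3 neural markers (PAX6, SOX1 and NEUROG2) summed to 14.7 to 21.4 CPM at 72 h, against 0.294 to 0.642 CPM at 0 h, and the endothelial markers to 38.6 to 57.4 CPM, against 195 to 258 CPM. Here too the endothelial sum at 0 h was almost wholly KDR. The part of these markers was not tested.

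The ratio of NKD1 to AXIN2 within a library follows both genes at once and needs no scaling between libraries. It carries the unknown ratio of the transcripts' lengths, so its values can be compared between libraries and say nothing of which gene makes more transcripts. In the CHIR arm it was 0.147 and 0.340 at 0 h, 0.393 and 0.484 at 8 h, 1.16 and 1.08 at 16 h, 1.31 and 1.19 at 24 h, 2.35 and 2.73 at 48 h, and 1.77 and 1.70 at 72 h. In the bcat arm it was 0.354 and 0.284 at 0 h, 0.452 and 0.407 at 8 h, 0.917 and 0.686 at 16 h, 0.582 and 0.809 at 24 h, 1.12 and 1.31 at 48 h, and 1.34 and 1.45 at 72 h. From 8 h on, all libraries of these arms lay above the 0 h libraries of their own arm.

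In the Wnt3a arm the ratio was 0.281 and 0.399 at 0 h, 0.573 and 0.643 at 8 h, 0.682 and 0.711 at 24 h, 0.306 and 0.718 at 48 h, 0.686 in the 1 library at 72 h, 1.09 and 1.13 at 96 h, and 1.46 and 2.05 at 120 h. It did not follow the dip of both genes at 24 h, and it was highest at the end of the series, when AXIN2 stood at 55.6 and 29.5 CPM. Only 48 h replicate 1 fell back among the 0 h libraries.

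**Figure D3:**
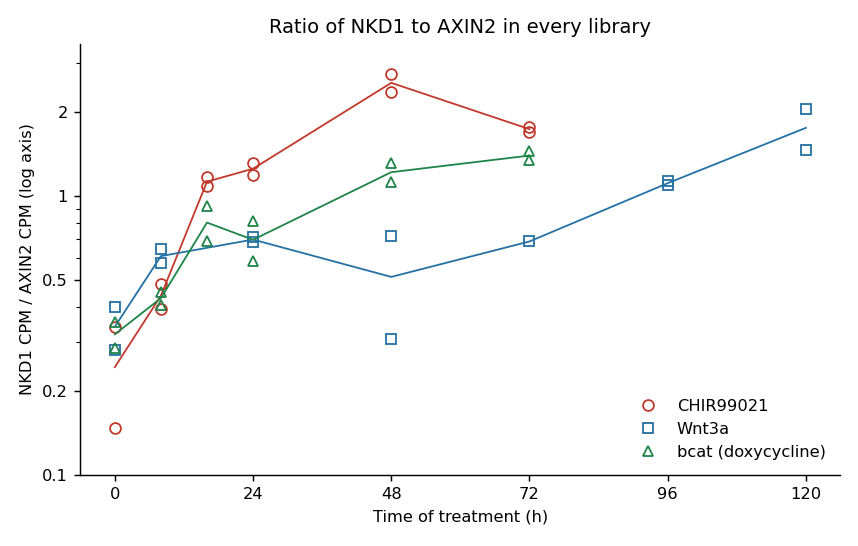
Ratio of NKD1 CPM to AXIN2 CPM in every library (log axis) against time of treatment in hours, with lines through group means. The ratio is below 0.4 in all 0 h libraries and above 1 in all CHIR99021 libraries from 16 h, in the bcat libraries of 48 and 72 h and in the Wnt3a libraries of 96 and 120 h.

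The arms were then set against each other as differences between changes, each change taken from the arm's own 0 h group, at times that both arms hold. This gave 13 differences for each gene, 39 in all, of which 22 were called. For CHIR minus Wnt3a, AXIN2 was higher by 1.72 ± 0.27 at 8 h, 4.40 ± 0.28 at 24 h, 3.19 ± 0.27 at 48 h and 3.84 ± 0.32 at 72 h on the log2 scale, with adjusted p of at most 2.82e-04. NKD1 was higher by 1.82 ± 0.42 at 8 h, 5.82 ± 0.44 at 24 h, 6.05 ± 0.43 at 48 h and 5.77 ± 0.50 at 72 h (adjusted p of 0.0129 at 8 h and at most 3.90e-08 after it). Both genes thus responded more to CHIR99021 than to Wnt3a at these doses at every shared time.

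NKD2 joined them from 48 h, with a difference of 1.86 ± 0.47 at 48 h (adjusted p = 0.00568) and 2.62 ± 0.51 at 72 h (adjusted p = 5.68e-04). At 8 h (0.51, 95% interval -0.42 to 1.44) and 24 h (0.41, 95% interval -0.52 to 1.34) it was not called. Without Wnt3a 0 h replicate 2, which leaves the shallow 0 h library alone, NKD2 was 1.49 at 48 h and 2.25 at 72 h and not called (adjusted p = 0.284 and 0.126). NKD1 at 8 h was then 1.20 (adjusted p = 0.471). NKD1 at 8 h also lost its call without Wnt3a 8 h replicate 1 (1.72, adjusted p = 0.0555). Without the 4 libraries that stood apart, all 10 called differences of this pair were called again, with adjusted p of at most 0.0269. Over all genes 4.65% were called at 8 h, 9.95% at 24 h, 16.1% at 48 h and 8.99% at 72 h.

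CHIR and bcat differed less. AXIN2 was higher with CHIR by 1.17 ± 0.28 at 16 h (adjusted p = 0.0198), and at 8, 24, 48 and 72 h the differences were 0.62, 0.66, 0.56 and 0.47 and not called (at 24 h the 95% interval ran from 0.09 to 1.22). NKD1 was higher by 1.93 ± 0.48 at 16 h, 1.79 ± 0.48 at 24 h and 1.90 ± 0.48 at 48 h, with adjusted p of 0.0319, 0.0321 and 0.00754 in that order. It was not called at 8 h (0.88 ± 0.47, adjusted p = 0.395) or 72 h (1.05 ± 0.47, adjusted p = 0.209). NKD2 was called at 72 h alone (2.19 ± 0.47, adjusted p = 0.00267), and that call was kept without the 4 libraries (1.81, adjusted p = 0.0384).

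The called differences of AXIN2 and NKD1 between CHIR and bcat held less well. Without the 4 libraries AXIN2 at 16 h was 1.22 (adjusted p = 0.0681). NKD1 was then 1.86 at 16 h, 1.66 at 24 h and 1.91 at 48 h, with adjusted p of 0.150, 0.200 and 0.0547 in that order. The sizes hardly moved, and each call was lost. Leaving out 1 library ended the call of AXIN2 at 16 h for 6 of 8 libraries (adjusted p up to 0.101). The same ended the call of NKD1 at 16 h for 6 of 8 (adjusted p up to 0.114) and at 24 h for 7 of 8 (adjusted p up to 0.138). At 48 h leaving out bcat 0 h replicate 2 alone did so for NKD1 (adjusted p = 0.0620). The share of all genes called was 2.7% at 8 h, 2.78% at 16 h, 4.95% at 24 h, 16.5% at 48 h and 7.2% at 72 h.

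For Wnt3a minus bcat, AXIN2 was lower by a log2 difference of -1.10 ± 0.28 at 8 h (adjusted p = 0.0196), -3.74 ± 0.29 at 24 h, -2.63 ± 0.29 at 48 h and -3.37 ± 0.33 at 72 h (adjusted p of at most 2.24e-07 after 8 h). At 8 h the call was lost without the 4 libraries (-1.15, adjusted p = 0.0711). It was also lost without any 1 of bcat 0 h replicate 2, bcat 8 h replicate 1, Wnt3a 0 h replicate 2 or Wnt3a 8 h replicate 1 (adjusted p up to 0.191). NKD1 was -0.94 ± 0.47 at 8 h and not called (adjusted p = 0.294), and then -4.04 ± 0.48 at 24 h, -4.15 ± 0.47 at 48 h and -4.72 ± 0.52 at 72 h (adjusted p of at most 4.51e-06). NKD2 was called at none of these times, with differences from -1.07 to 0.63. Of all genes 5.6% were called at 8 h, 15% at 24 h, 12.1% at 48 h and 11.9% at 72 h.

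**Figure D4:**
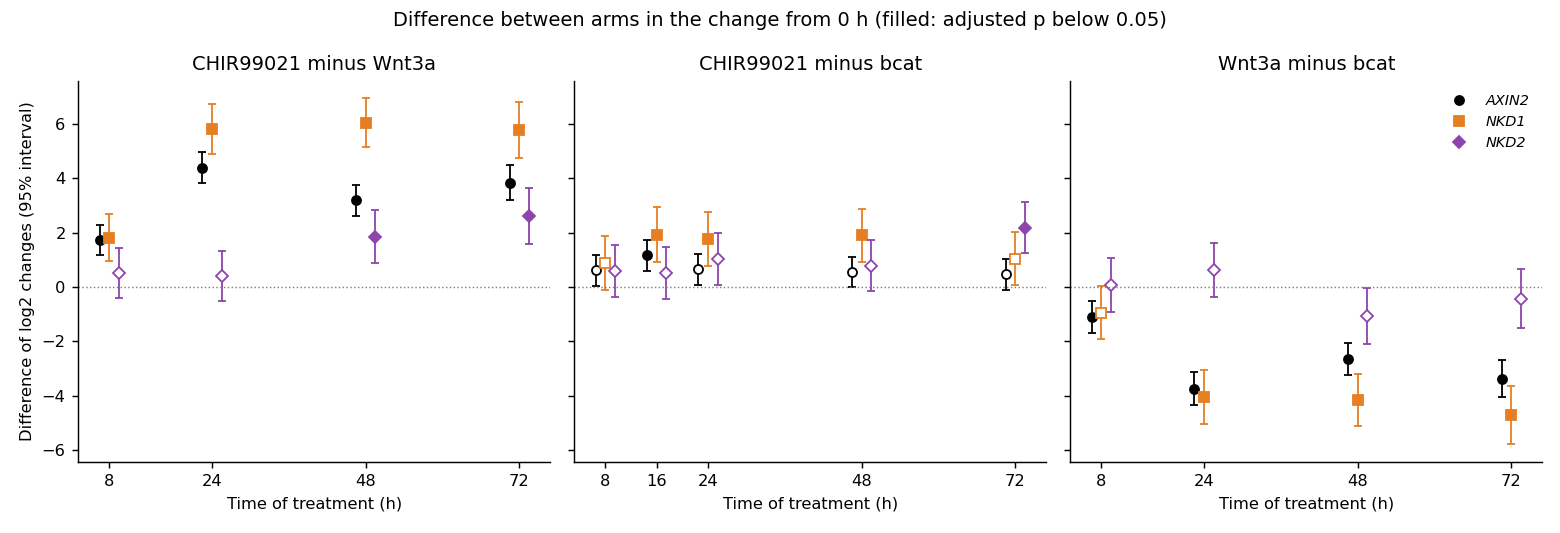
Difference between arms in the log2 change from 0 h against time of treatment in hours, with 95% intervals; filled symbols mark an adjusted p below 0.05. CHIR99021 minus Wnt3a is above 0 and Wnt3a minus bcat below 0 for AXIN2 and NKD1, and both are larger from 24 h on than at 8 h. For NKD2 the filled symbols are those of CHIR99021 minus Wnt3a at 48 and 72 h and CHIR99021 minus bcat at 72 h.

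The untreated groups of the 3 arms did not differ by a call in any member. Of all genes 15.7% were called between the bcat and CHIR groups, 24% between the bcat and Wnt3a groups and 10.9% between the Wnt3a and CHIR groups. NKD2 came nearest, at 0.96 ± 0.38 for bcat minus Wnt3a (adjusted p = 0.0669) and 0.81 ± 0.36 for bcat minus CHIR (adjusted p = 0.129). Without the 4 libraries that stood apart, which takes out the higher bcat 0 h library, these differences were 0.48 and 0.44. AXIN2 differed by 0.30 for bcat minus CHIR (95% interval -0.13 to 0.74), and NKD1 by 0.57 (-0.27 to 1.40). For Wnt3a minus CHIR the differences were 0.04 for AXIN2 and 0.63 for NKD1.

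Ordered by their mean level over all 19 groups, AXIN2 was highest at CHIR 72 h, then at bcat 72 h, CHIR 48 h, bcat 48 h and CHIR 24 h. It was lowest at Wnt3a 24 h, with Wnt3a 96 h and the 0 h groups next above it. For 12 of its 18 pairs of neighbours in that order the libraries did not overlap. NKD1 was highest at CHIR 48 h, then at CHIR 72 h, bcat 72 h and bcat 48 h, and lowest in the 3 untreated groups, and again 12 of the 18 neighbours were apart. NKD2 was highest at CHIR 72 h and lowest at Wnt3a 48 h, and 15 of its 18 neighbours overlapped, so that most of its order cannot be read. Across the 16 changes from 0 h, which share their 0 h libraries within an arm, Pearson's r was 0.950 between AXIN2 and NKD1, 0.585 between NKD1 and NKD2 and 0.435 between AXIN2 and NKD2.

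NKD2 was the only member for which a promoter was at hand, and it is shown for that reason. The window runs from 250 bases before to 50 bases after the start of the gene at chr5:1008552-1008851 on the plus strand of GRCh38.p14, as given by RefSeq, and the capitals mark CpG pairs.
NKD2: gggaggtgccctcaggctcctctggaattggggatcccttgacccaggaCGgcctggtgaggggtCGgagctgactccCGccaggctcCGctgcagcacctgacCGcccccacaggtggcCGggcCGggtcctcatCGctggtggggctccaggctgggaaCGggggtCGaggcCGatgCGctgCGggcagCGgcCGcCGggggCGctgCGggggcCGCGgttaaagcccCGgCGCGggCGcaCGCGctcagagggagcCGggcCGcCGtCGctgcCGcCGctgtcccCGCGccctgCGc
It holds 35 CpG pairs against a median of 14 in the 35116 promoters of the same length, and 77.0% of its bases are G or C against a median of 58.7%. Neither CTTTGAT nor CTTTGAA, letters that TCF and LEF factors are known to bind, occurs in it on either strand, and 6.86% of all promoters hold at least 1 of them. The absence says only that these letters are not in this window. Promoters of AXIN2 and NKD1 were not analysed here.

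Other inhibitors that act inside the cell were called in both directions. Of 14 such genes, which include the scaffold AXIN1, APC, the GSK3 kinases and the DACT family of Dishevelled binders, between 1 and 5 rose and between 0 and 4 fell at any of the 16 times. Their median log2 change lay between -0.15 and 0.21, against medians of all genes between -0.02 and 0.09. Over the same times 2.28% to 18.8% of all genes rose and 1.18% to 21% fell. The counts were highest at bcat 72 h, where 5 of the 14 rose and 4 fell, against 13.6% of all genes in each direction. DACT1, which binds Dishevelled, rose at all 16 times. At 8 h its log2 change was 5.76 with CHIR99021, 3.72 with Wnt3a and 4.18 with induced beta-catenin. At the last time of each arm it was 6.72, 2.64 and 6.04 in the same order (adjusted p of at most 7.95e-12). In the Wnt3a arm it did not dip as AXIN2 and NKD1 did, with a change of 4.03 at 24 h. CXXC5, CBY1 and KLHL12 did dip, with called log2 steps of -0.59, -0.94 and -0.42 from 8 to 24 h. From 24 to 48 h they rose by 0.58, 0.95 and 0.34 (adjusted p of at most 0.0325). APC2, CXXC4 and DACT3 rose from 8 to 24 h instead. Of all genes 15.3% fell and 10.8% rose over that step.

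Its relative DACT2 went the other way in 2 arms, with called changes of -1.62 at CHIR 8 h, -4.17 at CHIR 72 h and -3.31 at bcat 72 h (adjusted p = 0.00330, 9.68e-08 and 2.30e-05). At bcat 48 h its fitted change was -5.38 (adjusted p = 5.59e-07), from a level of 0.0570 ± 0.0806 CPM (SD, n = 2) that rests on few reads. It was called at no time of the Wnt3a arm. CXXC5 rose at all 5 bcat times, by 1.11 at 8 h. DACT3 and CXXC4, another Dishevelled binder, rose late with Wnt3a, by 2.30 and 2.60 at 96 h. AXIN1, the scaffold that AXIN2 resembles, was called once in 16 times, at bcat 48 h (0.52, adjusted p = 0.0282). APC was also called once, at bcat 8 h (0.52, adjusted p = 0.0473), and GSK3B fell at bcat 16 to 72 h by 0.50 to 0.56 and at Wnt3a 48 h by 0.45.

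Partners of the members were followed too. Of the 3 Dishevelled genes, which the NKD proteins bind, at most 1 was called at any time, DVL1 with -0.53 at CHIR 8 h and DVL2 with 0.69 at CHIR 48 h being the largest. Of 8 genes that control the turnover of Axin proteins, at most 3 rose and at most 2 fell at a time. The 3 rose at Wnt3a 96 h, where 1 fell, against 18.8% of all genes upward and 21% downward, so the count says little of this list. TNKS2, a tankyrase that marks Axin for destruction, fell at all 5 CHIR times, by 0.77 at 8 h and 1.25 at 48 h on the log2 scale (adjusted p = 7.05e-06 and 2.77e-10). It also fell at Wnt3a 24 and 120 h and bcat 72 h. SIAH2, a ubiquitin ligase, rose by 1.47 at CHIR 48 h and by 0.52 to 1.18 at all Wnt3a times from 24 h. TGFA, the cargo of NKD2, fell at 8 h in the CHIR and bcat arms (-1.39 and -1.26, adjusted p = 7.68e-04 and 0.00517). It rose at CHIR 48 and 72 h (0.94 and 0.86) and at Wnt3a 48 h (1.56), where NKD2 was at its lowest. PPP2R3A, which encodes a phosphatase subunit described as a binding partner of NKD1, rose by 0.47 to 0.79 at CHIR 16 to 72 h and bcat 16 to 72 h.

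Inhibitors at the receptor and outside the cell made up another list, and no test was made between lists. Of 10 such genes, among them the ubiquitin ligases RNF43 and ZNRF3, the secreted antagonists DKK1, DKK4, WIF1 and NOTUM, and the membrane protein APCDD1, 7 rose at CHIR 8, 16 and 24 h and 9 at 48 and 72 h. The median log2 change of the 10 genes was 3.46 at CHIR 8 h. With Wnt3a 3 rose at 8 h, 7 at 24 h, 4 at 48 h, 7 at 72 h, 9 at 96 h and 7 at 120 h, and in the bcat arm 6, 5, 7, 7 and 9. Upward calls made up 9.2%, 6.55%, 5.91%, 15.7% and 11.5% of all genes at the CHIR times in order. They made up 2.28%, 9.32%, 7.58%, 8.43%, 18.8% and 12.2% at the Wnt3a times, and 10.7%, 6.23%, 6.87%, 11.1% and 13.6% at the bcat times.

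The dip of AXIN2 and NKD1 at Wnt3a 24 h was also looked for in this list. APCDD1 averaged 19.1 ± 0.865 CPM at 8 h, 12.8 ± 1.96 CPM at 24 h and 31.0 ± 3.96 CPM at 48 h, and DKK4 averaged 15.6 ± 2.27, 0.472 ± 0.117 and 247 ± 24.7 CPM at these times (SD, n = 2). Both fell from 8 to 24 h (adjusted p = 0.0140 and 6.13e-09) and rose from 24 to 48 h (adjusted p = 3.64e-06 and 2.78e-13). TNFRSF19 and WIF1 fell from 8 to 24 h too (log2 step -1.36 and -2.12, adjusted p = 0.00126 and 6.97e-04) and had no called step from 24 to 48 h. DKK1 averaged 0.584 ± 0.0406, 1.36 ± 0.470 and 47.2 ± 7.06 CPM, and of these 2 steps only that from 24 to 48 h was called. Of the 10 genes 4 thus fell from 8 to 24 h and 1 rose, against 15.3% and 10.8% of all genes. From 24 to 48 h APCDD1, DKK4 and DKK1 rose, while ZNRF3 and RNF43 fell (log2 step -0.76 and -1.15, adjusted p = 0.00504 and 0.0498). Over that step 10% of all genes rose and 8.96% fell. Against 0 h WIF1 alone fell in this list, at Wnt3a 72 and 96 h.

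DKK4, a secreted inhibitor, had 0 counts in both CHIR 0 h libraries and in both bcat 0 h libraries. With 3 counts over the 0 h group in place of 0 it was at least 388-fold higher at CHIR 8 h and at least 25.5-fold higher at bcat 8 h, and these bounds cover counting error only. With such genes at their bound the median of the list was 2.10 at bcat 24 h and 3.64 at bcat 72 h, against 2.80 and 4.76 from fitted values, and it was the same at all other times. Among 6 nuclear targets and effectors, SP5, LEF1 and SP8 rose at all 16 times. TCF7 rose at all CHIR and bcat times and at Wnt3a 8 and 120 h. TCF7L1 and TCF7L2 were never called upward. Both fell at CHIR 16 to 72 h, at Wnt3a 48 h and at bcat 16, 48 and 72 h. TCF7L1 changed by -1.32 at Wnt3a 8 h and -2.81 at CHIR 48 h (adjusted p = 0.00442 and 1.49e-08). At CHIR 48 h 4 of the 6 rose and 2 fell, against 15.7% and 18.1% of all genes. LEF1, a partner of beta-catenin on DNA, rose by 5.52 at CHIR 8 h, 5.02 at Wnt3a 8 h and 4.78 at bcat 8 h, and at Wnt3a 24 h by 3.10 (adjusted p = 7.84e-05). From Wnt3a 8 to 24 h LEF1 and SP5 fell (log2 step -1.93 and -1.92, adjusted p = 3.21e-05 and 9.02e-06). From 24 to 48 h both rose (1.91 and 2.66, adjusted p = 9.60e-05 and 2.30e-07). TCF7 fell from 8 to 24 h (-0.75, adjusted p = 0.0443), and SP8, TCF7L1 and TCF7L2 had no called step there.

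**Figure D5:**
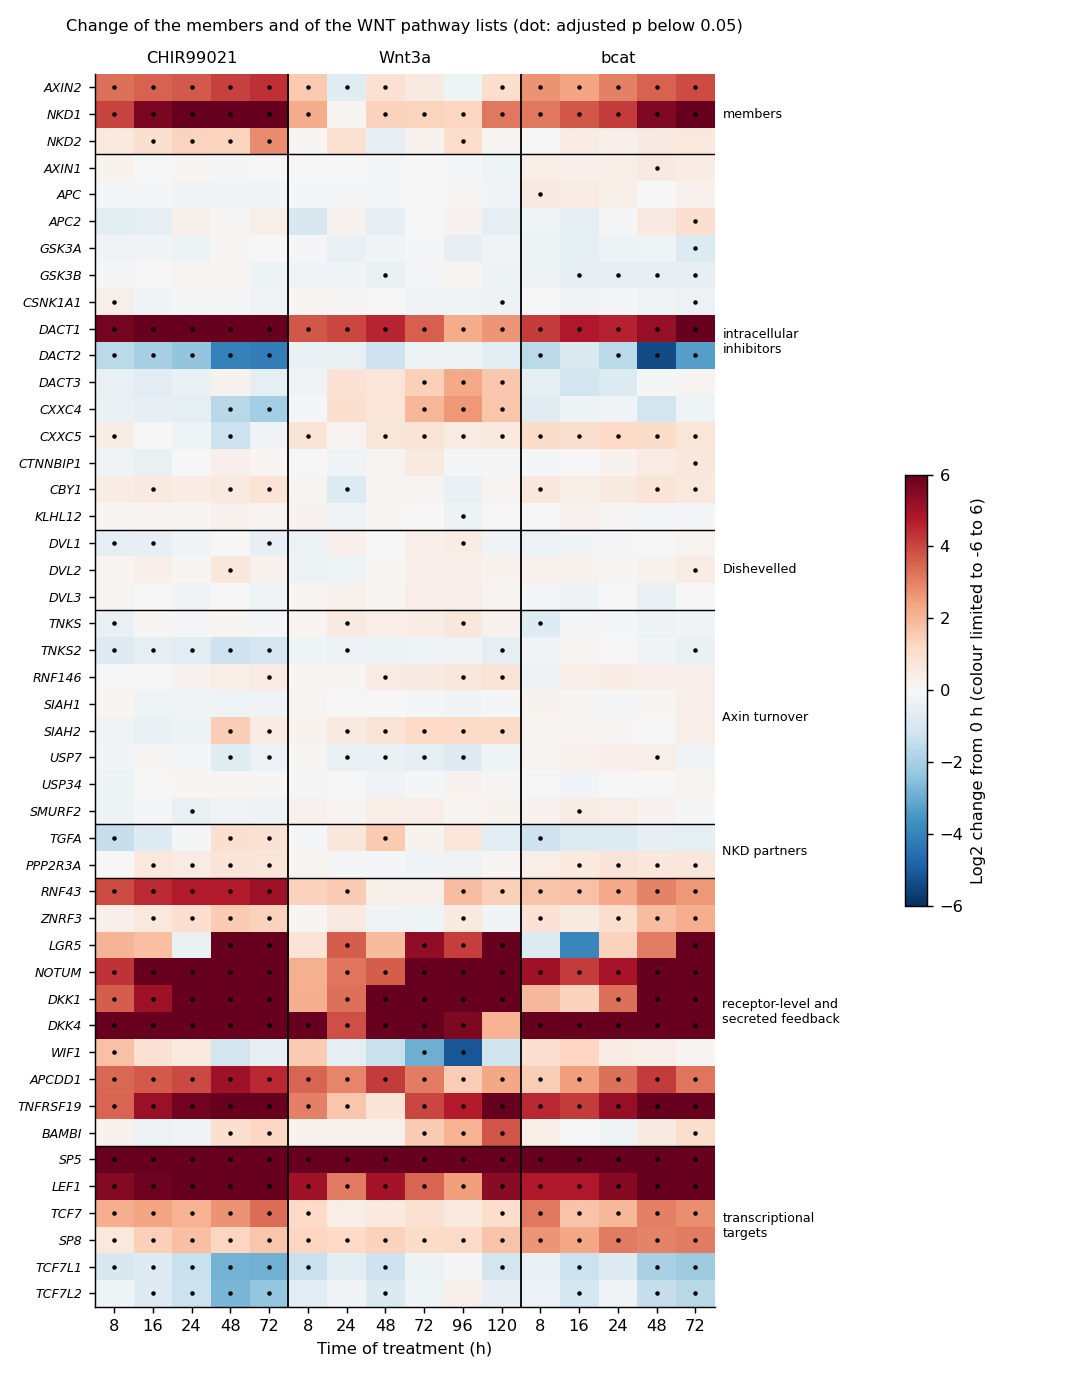
Log2 change from 0 h of the 3 members and of 43 other WNT pathway genes in 6 lists (rows), by arm and time of treatment in hours (columns); colour runs from -6 to 6 and is cut there, and a dot marks an adjusted p below 0.05. DACT1 is high in every column while AXIN1, APC and the GSK3 genes are near 0; colours of DKK4, NOTUM and LGR5 rest on 0 to 3 counts in an untreated group and are not measured folds.

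The genes whose 16 changes resembled those of the members most were sought among the 6987 tested genes with at least 5 CPM in a group and a log2 change of at least 1 at some time. For AXIN2 they were LEF1-AS1 (Pearson's r of 0.966), CDX2 (0.957), NAA30 (0.951), TMEM2 (0.950) and NKD1 (0.950). For NKD1 they were NAA30 (0.954), RP11-474D1.3 (0.953), AXIN2 (0.950), CDX2 (0.944) and LEF1-AS1 (0.942), so that NAA30, CDX2 and LEF1-AS1 stood in both lists. NAA30, which encodes the catalytic part of an enzyme that acetylates protein ends, changed far less than either, by 0.52 at CHIR 8 h, 1.48 at CHIR 72 h and -0.43 at Wnt3a 24 h. CDX2, a homeobox gene of the posterior body, had a fitted change of 15.3 at bcat 72 h. LEF1-AS1, transcribed opposite to LEF1, had one of 7.40 at CHIR 48 h. The counts of both before treatment are not given here, so these are fitted values and may not be measured folds.

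For NKD2 those nearest included NRSN2-AS1 (0.856), NOD1 (0.826), MYO1F (0.818) and RP11-788H18.1 (0.813), and none of them stood in the other lists. These likenesses are a description over changes that share their 0 h libraries and come from 3 arms. RP11-788H18.1 had a fitted change of 0 at Wnt3a 48 and 120 h and at bcat 8 and 16 h, and of 10.3 at CHIR 48 h. Such values point to counts at or near 0 before treatment, so its large changes are not measured folds.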

How the data were processed

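Total RNA of H9 cells was made into stranded libraries, and the authors deposited 1 table of estimated counts per gene, which they call raw. The tool was kallisto 0.43.0, per the submitters' processing notes. Genome build, annotation and how transcripts were summed: not given in the sources used here. Each deposited column proved to be estimated counts times a constant of its own (0.265 to 6.58), and was divided by it and rounded. Of the values of at most 20 counts, 57.4% to 81.3% per library were whole to within 0.1 before rounding. Of the symbols 27 had been turned into dates and are not named.

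All 37 libraries entered 1 fit in edgeR 4.0.16 (R 4.3.3): 19 group means, 18 residual degrees of freedom, TMM, filterByExpr, trended dispersion (0.00921 to 0.246), robust quasi-likelihood tests, Benjamini-Hochberg adjustment within each comparison. The lone Wnt3a 72 h library is assumed to vary like the others. Intervals are at 95%. The pipeline was tested on simulated counts. Alternatives were DESeq2 1.42.0 (Wald test, and its size factors in edgeR), no filter, undivided values, only the arms compared, leaving out libraries, and a replicate block.

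The members, gene lists and rules were chosen with earlier results of these data known. Named genes were the members, up to 3 called genes of largest change per list and time, and the 5 nearest genes by correlation, of which 1 is not reported here. AXIN1, APC, the GSK3 genes, TNKS2, PPP2R3A, WIF1 and ZNRF3 were named also where outside that rule, after their values had been seen. The same holds for the Wnt3a steps of the intracellular, receptor-level and nuclear target lists.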

Additional observations from a re-analysis of the deposited data

Results flagged for a closer look

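Because the change from 0 h differed between arms by a test of that difference, 22 of 39 differences of AXIN2, NKD1 and NKD2 are set out for a closer look, as log2 differences with edgeR's quasi-likelihood test and Benjamini-Hochberg adjustment. For CHIR99021 minus Wnt3a they were 1.72, 4.40, 3.19 and 3.84 for AXIN2 and 1.82, 5.82, 6.05 and 5.77 for NKD1 at 8, 24, 48 and 72 h, and 1.86 and 2.62 for NKD2 at 48 and 72 h. For CHIR99021 minus bcat they were 1.17 for AXIN2 at 16 h, 1.93, 1.79 and 1.90 for NKD1 at 16, 24 and 48 h, and 2.19 for NKD2 at 72 h. For Wnt3a minus bcat they were -1.10, -3.74, -2.63 and -3.37 for AXIN2 at 8, 24, 48 and 72 h and -4.04, -4.15 and -4.72 for NKD1 at 24, 48 and 72 h. Of all genes 2.7% to 16.5% were called in these comparisons between arms. For CHIR99021 minus bcat, the calls of AXIN2 and of NKD1 were lost without the 4 libraries that stood apart. So was that of AXIN2 at 8 h for Wnt3a minus bcat. The arms differ in agent, in line for bcat, in their own 0 h cultures and in their share of ribosomal RNA, and these cannot be told apart.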

How the results depend on the processing

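Over 945 values of the 3 genes under other fits (all 45 comparisons), 899 kept direction and side of the threshold, as did 593 of 666 values with 1 library left out. Sign changed in 14 and 18 values that were called neither before nor after. The 14 were NKD2 at bcat 8 h (-0.0427 with only the arms compared, -0.0241 with the replicate block, -0.1882 undivided, -0.0772 with the Wald test, -0.0465 with DESeq2's size factors), NKD2 at Wnt3a 120 h without the 4 libraries (-0.0003), and NKD2 for Wnt3a minus bcat at 8 h (-0.3941 without the 4 libraries, -0.0492 with no filter). The others, with the block, undivided and with the Wald test in that order, were NKD1 from Wnt3a 48 to 72 h (0.0980, 0.0303 and 0.0274) and NKD1 in untreated bcat minus Wnt3a (0.0036, 0.2332 and 0.0800). With undivided deposited values NKD2 was 0.97 at CHIR 16 h (adjusted p = 0.0557) and lost its call. It was called at Wnt3a 24 h (1.03), as with DESeq2's Wald test (0.98) and its size factors (0.98). It was also called in untreated bcat minus CHIR (0.97) and minus Wnt3a (1.22, and 1.03 with the Wald test). Without the 4 libraries that stood apart these 2 differences of NKD2 were 0.44 and 0.48. Fitting only the arms compared called NKD2 at CHIR 8 h (0.63) and the steps of AXIN2 at CHIR 24 to 48 h (0.40), bcat 16 to 24 h (0.68) and bcat 24 to 48 h (0.55), and of NKD1 at bcat 8 to 16 h (0.54) and 48 to 72 h (0.56). It lost those at Wnt3a of AXIN2 from 72 to 96 h (-0.78) and NKD2 from 8 to 24 h (0.79) and 96 to 120 h (-0.99). DESeq2's Wald test and size factors also called AXIN2 from bcat 16 to 24 h (0.68 each) and 24 to 48 h (0.56 each), and the Wald test AXIN2 for CHIR minus bcat at 24 h (0.77). With no filter NKD1 for CHIR minus bcat was 1.85 at 16 h and 1.70 at 24 h and not called. Without the 4 libraries that stood apart, calls were lost for AXIN2 at 16 h (1.22) and NKD1 at 16, 24 and 48 h (1.86, 1.66 and 1.91) of CHIR minus bcat, AXIN2 at 8 h of Wnt3a minus bcat (-1.15), and the steps of NKD1 from bcat 24 to 48 h (1.21) and NKD2 from Wnt3a 8 to 24 h (0.82, and 0.86 undivided). The cause was not tested.

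Same-numbered replicates did not deviate together (r between groups from -0.0519 to 0.0552 over 45 pairs of groups), so the numbers pair nothing. With the replicate block within arm 1 call of the 3 genes changed, NKD2 from Wnt3a 8 to 24 h (0.82, adjusted p = 0.0592).

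With 1 library left out, results that changed sides had these ranges: changes of NKD2 at CHIR 16 h 0.91 to 1.06 and Wnt3a 96 h 0.36 to 1.49, AXIN2 at Wnt3a 24 h -0.75 to -0.54, NKD1 at Wnt3a 48 h 0.65 to 2.01 and 72 h 1.26 to 1.98. The Wnt3a steps were, for NKD2 from 8 to 24 h 0.66 to 1.05, 72 to 96 h 0.14 to 1.28 and 96 to 120 h -1.42 to -0.31, NKD1 from 24 to 48 h 0.50 to 1.62, and AXIN2 from 72 to 96 h -0.84 to -0.75. The bcat step of AXIN2 from 24 to 48 h was 0.35 to 0.75. For CHIR minus Wnt3a they were 1.20 to 2.64 for NKD1 at 8 h, and 1.49 to 2.40 and 2.25 to 2.70 for NKD2 at 48 and 72 h. For CHIR minus bcat they were 1.01 to 1.34 for AXIN2 at 16 h, and 1.51 to 2.75, 1.36 to 2.61, 1.47 to 2.72 and 0.63 to 1.87 for NKD1 at 16, 24, 48 and 72 h. AXIN2 for Wnt3a minus bcat at 8 h gave -1.21 to -0.93. Untreated bcat minus CHIR gave 0.14 to 1.38 for NKD1, bcat minus Wnt3a 0.55 to 1.43 for NKD2, and Wnt3a minus CHIR 0.0074 to 1.45 for NKD1. Sign changed within the ranges of NKD2 at Wnt3a 8 h (-0.1432 to 0.4537) and 120 h (-0.0226 to 0.4203), at bcat 8 h (-0.4995 to 0.4067), 16 h (-0.0191 to 0.8259) and 24 h (-0.1927 to 0.6602), in its steps from CHIR 24 to 48 h (-0.0429 to 0.0897) and bcat 48 to 72 h (-0.2356 to 0.3842), and for Wnt3a minus bcat at 8 h (-0.3320 to 0.5849) and 72 h (-0.8465 to 0.0425). It also did in NKD1 from Wnt3a 48 to 72 h (-0.4083 to 0.7003) and in untreated bcat minus Wnt3a (-0.1892 to 0.5555), and in AXIN2 in untreated Wnt3a minus CHIR (-0.1240 to 0.1215). Of the 43 pathway genes 5 to 14 were called at Wnt3a 24 h, against 16 with all libraries.

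The count of all genes called fell by more than 1.5 times under at least 1 alternative at 12 of the 16 times: to as few as 2898 of 5075, 2098 of 3862 and 2136 of 3529 at CHIR 8, 16 and 24 h, to 431 of 839, 2407 of 4915, 2481 of 3922, 2558 of 3978, 5787 of 9686 and 3640 of 6772 at Wnt3a 8 to 120 h, and to 2926 of 4549, 1537 of 2654 and 1616 of 3117 at bcat 8, 16 and 24 h. At Wnt3a 8 h it was 539 with only that arm in the fit, and the 1616 at bcat 24 h came without the 4 libraries. The Wnt3a 72 h library cannot be left out. NKD2, with 6 to 1044 counts in a library, is the member most limited by depth.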
